A study of Mus musculus with 8 samples.

Results

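The T cell receptor (TCR) complex genes described here are 9 genes: Cd3d, Cd3e, Cd3g, Cd247, Cd4, Cd8a, Lat, Zap70 and Lck, of 21900 protein-coding mouse genes. They were followed in 8 lists of ATAC-seq peaks, which mark DNA open to a transposase, from sorted retinal ganglion cells (RGCs). The set was chosen by a measured result of the same lists, in which some T cell genes had a gene-end peak in GFP and Ezh2 lists but lacked one in Ezh2-Y726D. That pattern held for 4 of the 9. The presence and number of their peaks are therefore a description with no test, and the ranks set against Ezh2-Y726D support nothing. The rank in Ezh2 against GFP was tested, for elements in all 8 lists. Overlapping peaks of different lists, with 1 bp in common or more, were joined into 189914 elements, of which 97 lay in a member or the 20 kb on either side of it.

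Adult C57BL/6J mice of both sexes received adeno-associated virus (AAV2) in the vitreous body, carrying GFP (n = 3 libraries), the histone methyltransferase Ezh2 (n = 3), or Ezh2-Y726D, a form without catalytic activity (n = 2). All 3 groups had an optic nerve crush 2 weeks after the virus, and cells were sorted 3 days later, with 50000 cells per library. The sort took living cells that bound an antibody to CD90.2, the product of Thy1, which mouse T cells also carry on their surface. AAV2 also enters retinal cells other than RGCs, the number of animals behind each library was not given, and the labels do not say that libraries of a group came from separate animals, so errors and p-values cover only the spread between these libraries. Each list held between 112939 and 135895 peaks, and sequencing depth is unknown. The background pileup, a relative index of depth recovered from the steps of low folds, ranged from 2.39 to 3.74 reads. The lowest value was that of Ezh2-Y726D replicate 1, and Ezh2-Y726D replicate 2 stood at 3.12. The part of depth in absent peaks was not tested. At gene ends, 18 or 19 of 20 RGC marker genes had a peak in each of the 8 lists. So had 13 of 15 Müller glia genes, and such counts do not tell which cells were present. Fewer cells of a type and less open DNA per cell cannot be told apart in such bulk libraries, and a region without a listed peak is not shown to be closed.

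The TCR recognizes peptide presented on other cells and signals through the CD3 chains, whose genes are Cd3g, Cd3d and Cd3e, and through the zeta chain encoded by Cd247. The coreceptors CD4 and CD8 bring the kinase Lck to the receptor, Lck phosphorylates the CD3 and zeta chains, and the kinase Zap70 docks there and phosphorylates the adaptor Lat. These genes are characteristic of T cells, some are also used by natural killer (NK) cells, and the zeta chain has been described in RGCs as well.

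RefSeq start-site windows (250 bases before to 50 after the start site, build GRCm38.p6) were found for 8 of the 9 members, 11 windows in all, with none for Cd4. The windows that carry the main pattern are printed first, since each lay under a peak in all 6 GFP and Ezh2 lists and under none in the 2 Ezh2-Y726D lists. They run 5′ to 3′ along the gene's own strand, and capitals mark any of 5 motifs searched on both strands: an ETS core (AGGAAG), a RUNX motif (TGTGGT), an E-box (CAGGTG), a TCF/LEF motif (CTTTGA) and a CRE half-site (TGACGT). The motifs were picked after the peaks had been seen.
Cd3g, chr9:44980382-44980681, minus strand: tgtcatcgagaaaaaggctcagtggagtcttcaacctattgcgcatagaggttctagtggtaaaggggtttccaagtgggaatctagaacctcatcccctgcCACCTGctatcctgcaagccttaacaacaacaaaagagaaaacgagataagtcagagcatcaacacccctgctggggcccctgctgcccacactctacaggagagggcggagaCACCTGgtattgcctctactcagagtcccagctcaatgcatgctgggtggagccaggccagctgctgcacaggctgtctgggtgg
Cd3e, chr9:45009562-45009861, minus strand: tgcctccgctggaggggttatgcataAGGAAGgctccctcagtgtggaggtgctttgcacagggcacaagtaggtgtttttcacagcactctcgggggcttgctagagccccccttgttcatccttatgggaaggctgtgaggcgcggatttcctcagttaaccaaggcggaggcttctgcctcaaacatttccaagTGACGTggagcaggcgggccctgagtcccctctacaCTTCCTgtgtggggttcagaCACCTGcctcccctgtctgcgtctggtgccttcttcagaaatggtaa
Cd8a, chr6:71373177-71373476, plus strand: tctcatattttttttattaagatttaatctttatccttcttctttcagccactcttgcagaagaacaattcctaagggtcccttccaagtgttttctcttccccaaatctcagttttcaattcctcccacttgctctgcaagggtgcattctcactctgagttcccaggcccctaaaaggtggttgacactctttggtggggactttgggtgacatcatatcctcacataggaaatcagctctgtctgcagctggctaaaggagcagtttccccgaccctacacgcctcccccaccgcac
Lat, chr7:126369519-126369818, minus strand: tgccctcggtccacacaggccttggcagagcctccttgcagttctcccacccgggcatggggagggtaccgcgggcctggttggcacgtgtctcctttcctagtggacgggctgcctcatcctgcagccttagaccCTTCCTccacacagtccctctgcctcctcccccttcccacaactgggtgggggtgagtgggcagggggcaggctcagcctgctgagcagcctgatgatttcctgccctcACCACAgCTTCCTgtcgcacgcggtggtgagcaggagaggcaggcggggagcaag
Zap70, chr1:36761548-36761847, plus strand: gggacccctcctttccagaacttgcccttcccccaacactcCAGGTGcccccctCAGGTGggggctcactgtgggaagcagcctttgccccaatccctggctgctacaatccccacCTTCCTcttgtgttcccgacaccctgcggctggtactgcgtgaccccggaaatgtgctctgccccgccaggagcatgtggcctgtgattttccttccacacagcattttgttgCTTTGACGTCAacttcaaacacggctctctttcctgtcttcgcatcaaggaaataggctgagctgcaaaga
For comparison, the window of Cd3d had a peak in 1 list only, and the proximal of the pair of Lck windows had one in GFP replicates 2 and 3 and all Ezh2 lists.
Cd3d, chr9:44981536-44981835, plus strand: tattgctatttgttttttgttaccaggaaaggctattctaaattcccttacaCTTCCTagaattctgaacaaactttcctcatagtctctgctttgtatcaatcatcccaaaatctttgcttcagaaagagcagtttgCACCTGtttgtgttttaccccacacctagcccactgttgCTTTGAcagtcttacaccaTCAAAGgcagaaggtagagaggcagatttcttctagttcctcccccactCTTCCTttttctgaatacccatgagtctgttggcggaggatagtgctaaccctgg
Lck proximal, chr4:129558323-129558622, minus strand: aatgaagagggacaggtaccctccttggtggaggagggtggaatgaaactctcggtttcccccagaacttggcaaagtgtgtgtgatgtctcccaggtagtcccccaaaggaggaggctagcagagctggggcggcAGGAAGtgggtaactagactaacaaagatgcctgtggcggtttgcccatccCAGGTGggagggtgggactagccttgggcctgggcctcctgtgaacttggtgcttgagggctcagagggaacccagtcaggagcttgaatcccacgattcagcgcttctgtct
Of the 11 member windows, 8 held the ETS core, against 34.4% of 21238 RefSeq windows. The E-box was also in 8 of 11, against 19.7% of all windows. The RUNX motif was in 3 of 11, against 15% of all windows, and the TCF/LEF motif in 3 of 11, against 14.4%. The CRE half-site was in 2 of 11, against 8.48%. In the Zap70 window the TCF/LEF motif and the CRE half-site, the latter on both strands, overlap each other shortly before the start site. The Cd8a window held none of the 5. A match is a run of letters and not a shown binding site.

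At the start sites the contrast was one of presence. The peak over the Cd3g start (chr9:44980067-44980692) ranked at percentiles 68.3, 78.7 and 63.8 in GFP replicates 1 to 3, and 68.0, 60.9 and 69.2 in Ezh2 replicates 1 to 3. Here the percentile is the rank of a peak's fold over local background among all peaks of its own list, with 100 the strongest. GFP and Ezh2 overlapped, and neither Ezh2-Y726D list had the peak.

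The Cd3e start (chr9:45009139-45010158), which belongs to the CD3 chain that pairs with both of the others, stood at 49.1, 51.7 and 61.8 in GFP and at 69.0, 54.0 and 66.6 in Ezh2. The Cd8a start (chr6:71373225-71373715), of the coreceptor alpha chain of cytotoxic T cells, stood at 65.2, 71.5 and 63.0 in GFP and at 71.6, 71.5 and 56.8 in Ezh2. In both cases the GFP and Ezh2 lists overlapped, at middle to upper rank.

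The Lat start (chr7:126369054-126370130) held the strongest of these peaks, at 71.7, 73.3 and 90.8 in GFP and 92.0, 95.3 and 87.1 in Ezh2. Its fold over background ran from 6.28 to 9.25 in GFP and from 8.06 to 10.9 in Ezh2, with overlap through GFP replicate 3. The same element also reached the end of Spns1, a lysophospholipid transporter gene that lies next to Lat, so it cannot be given to Lat alone. The Zap70 start (chr1:36761266-36762379) stood at 54.8, 48.9 and 36.3 in GFP and at 66.1, 44.3 and 68.5 in Ezh2, again with overlap. Over these 5 start sites the percentile in the 6 GFP and Ezh2 lists ran from 36.3 to 95.3.

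**Figure D1:**
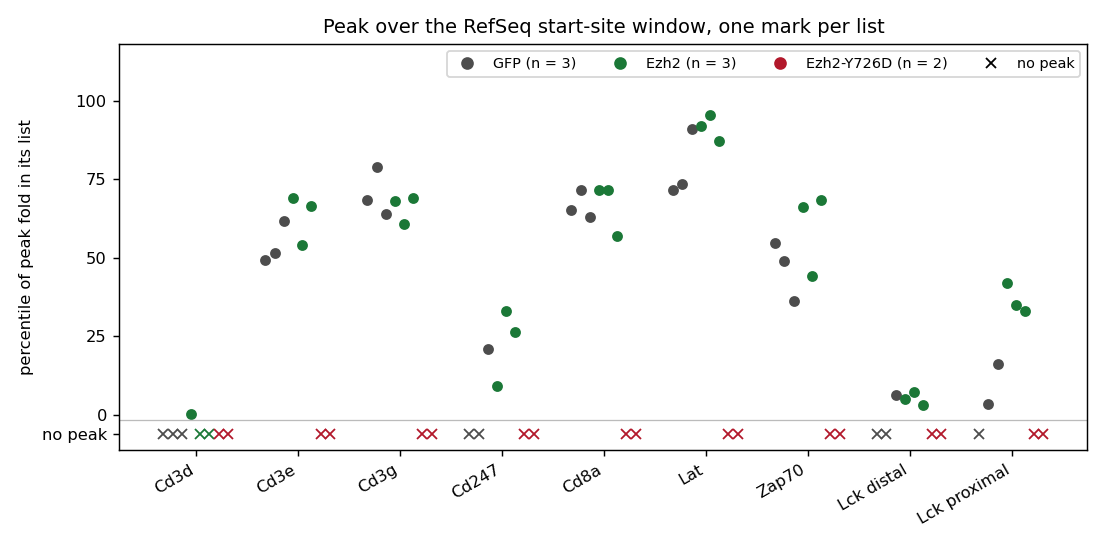
Percentile of peak fold within its own list (y axis; crosses, no peak) over 9 start-site windows of 8 members (x axis), with 1 mark per list, GFP in grey (n = 3), Ezh2 in green (n = 3) and Ezh2-Y726D in red (n = 2). Cd3e, Cd3g, Cd8a, Lat and Zap70 have a mark above 36 in all 6 GFP and Ezh2 lists, and every Ezh2-Y726D mark is a cross.

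The other windows were weaker or uneven. The Cd247 window had no peak in GFP replicates 1 and 2, one at 20.9 in GFP replicate 3, and 9.13, 33.0 and 26.3 in Ezh2. The distal Lck window (chr4:129573592-129573891) had none in GFP replicates 1 and 2, 6.22 in GFP replicate 3 and 4.95, 7.21 and 3.27 in Ezh2. The proximal Lck window had none, 3.47 and 16.1 in GFP replicates 1 to 3, and 42.1, 34.9 and 32.9 in Ezh2. All 3 Ezh2 lists thus ranked the proximal Lck peak above both GFP lists that had it. The Cd3d window had a peak in Ezh2 replicate 1 alone, at 0.307, and the remaining Zap70 windows had none in any list. No start-site window of a member had an Ezh2-Y726D peak. The Cd247 window, however, lay inside the annotated gene. The 5′ end of that gene had a peak in all 8 lists, at 70.2 and 68.5 in Ezh2-Y726D.

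In counts, 5 of the 8 members with a window had a start-site peak in the 6 GFP and Ezh2 lists and none in the Ezh2-Y726D lists. Of 13362 windows genome-wide whose start site was marked in those 6, 1.89% had that pattern. Counted within 1 kb of either gene end, the pattern held for Cd3g, Cd8a, Lat and Zap70, 4 of the 8 members with a gene-end peak in the 6 GFP and Ezh2 lists, against 1.8% of 14525 protein-coding genes with one in those 6. Cd3d, Cd3e, Cd247 and Cd4 had a gene-end peak in all 8 lists, and Lck in all but GFP replicates 1 and 2 and both Ezh2-Y726D replicates. The element near the Cd4 end overlapped the neighbour Gpr162 and not Cd4, so it cannot be given to Cd4 alone. Since the members were chosen on this pattern, nothing is read from these counts.

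Over all windows, 52, 59 and 72 peaks fell in GFP replicates 1 to 3 (61.0 ± 10.1, SD, n = 3), 78, 78 and 79 in Ezh2 (78.3 ± 0.58, SD, n = 3) and 43 and 46 in Ezh2-Y726D (44.5 ± 2.12, SD, n = 2). The 3 groups did not overlap, with Ezh2-Y726D lowest and Ezh2 highest. How often other gene sets separate in this way was not counted. As a share of its own list this was 0.0449%, 0.0522% and 0.0539% in GFP, 0.0618%, 0.0612% and 0.0581% in Ezh2, with 0.0345% and 0.0357% in Ezh2-Y726D. With lists cut to equal length, the difference in mean peaks from GFP was 12.3 for Ezh2, against 17.3 with full lists. For Ezh2-Y726D it was -14.8, against -16.5. The part of list length in the order was not tested. The mean number of elements with a peak was lower in Ezh2-Y726D than in GFP around all 9 members, with a median difference of -1.33 elements. Around 44.2% of 19306 protein-coding genes it was lower, with a median difference of 0. In Ezh2 it was higher than in GFP around all 9 members, with a median of 2.33 elements against 0.33 for all genes, of which 54.6% were higher.

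Between Ezh2-Y726D and GFP the mean differed most around Cd247, Cd8a, Cd4 and Cd3e, in that order. Around Cd247, the longest member, GFP lists had 16, 18 and 22 elements, Ezh2 lists 22, 21 and 22, and Ezh2-Y726D lists 13 and 14. Around Cd8a they had 3, 3 and 7 in GFP, 7, 7 and 6 in Ezh2, and 1 in each Ezh2-Y726D list. Around Cd4, the coreceptor of helper T cells, they had 9, 10 and 13 in GFP, 12, 14 and 13 in Ezh2, with 7 and 8 in Ezh2-Y726D. Around these 3 genes every Ezh2-Y726D list lay below every GFP list, while GFP replicate 3 reached the Ezh2 range. Around Cd3e, GFP lists had 4, 5 and 7, Ezh2 lists 10, 9 and 10, and Ezh2-Y726D lists 3 each, without overlap among the groups. Between Ezh2 and GFP the mean differed most around Cd3e and Lck, by 4.33 elements each. Around Lck, GFP lists had 5, 6 and 8, Ezh2 lists 10, 10 and 12, and Ezh2-Y726D lists 5 and 6, so Ezh2 stood apart and the other groups overlapped. Around Lat and Zap70 all lists lay between 3 and 6 and between 6 and 8 elements, and the 3 groups overlapped or touched. The share of all genes whose groups separate in these ways was not counted, so nothing is read from the separations.

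**Figure D2:**
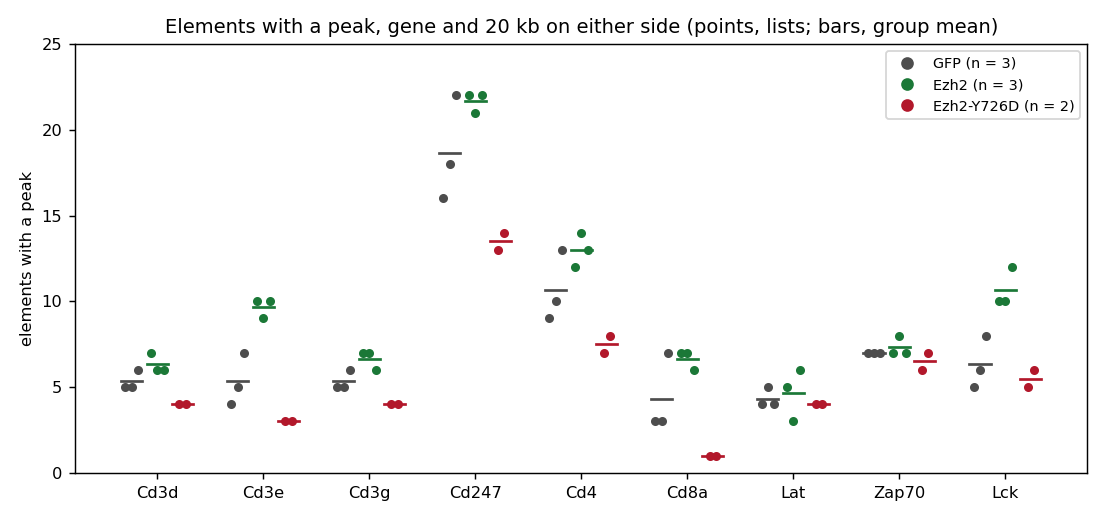
Number of elements with a peak in a gene and the 20 kb on either side of it (y axis) for the 9 members (x axis), with 1 point per list and a bar at the group mean, GFP in grey (n = 3), Ezh2 in green (n = 3) and Ezh2-Y726D in red (n = 2). The Ezh2-Y726D mean is the lowest of the 3 for every member, with a difference from GFP of -0.33 elements at Lat and -5.17 at Cd247.

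Element by element, 34 of the 97 had a peak in all 8 lists, against 69493 of all 189914 elements. In neither Ezh2-Y726D list was a peak found for 51. Elements were joined from 6 GFP and Ezh2 lists but only 2 Ezh2-Y726D lists. No genome share was worked out for the 51, and nothing is read from that count. Of 41 elements present in the 6 GFP and Ezh2 lists, 7 had none in Ezh2-Y726D, against 8.54% of 80295 such elements in the genome. With Ezh2 left aside, 11 of 48 member elements in every GFP list were in no Ezh2-Y726D list, against 9.72% of 92306. In Ezh2-Y726D lists alone 2 elements were found, each in 1 list, and 0 were in both Ezh2-Y726D lists and no GFP list. These counts too have no genome share beside them, and nothing is read from them. Of the 97, 7 lay in more than 1 window, because Cd3g, Cd3d and Cd3e are neighbours on chromosome 9.

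The 7 were the start sites of Cd3g, Cd3e, Cd8a, Lat and Zap70 and 2 elements inside Cd247. The first Cd247 element (chr1:165789152-165790514), 1.15 kb past the RefSeq start site, stood at 62.5, 48.3 and 63.0 in GFP and 41.1, 39.2 and 66.1 in Ezh2. The second (chr1:165840783-165841214), deep in the gene, was near the bottom of each list, between 1.17 and 10.4. At the 5′ end of the annotated Cd247 gene, 8.09 kb upstream of the start site of the window, an element (chr1:165779864-165781318) had a peak in all 8 lists. It stood at 65.9 to 78.6 in GFP, 74.9 to 81.6 in Ezh2, with 70.2 and 68.5 in Ezh2-Y726D. The gene thus carried both patterns. The strongest elements of its window lay at and in the neighbour Creg1 (chr1:165762961-165764527 and chr1:165771382-165772090), at 92.8 to 98.2 and 58.9 to 84.5 over the 8 lists.

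**Figure D3:**
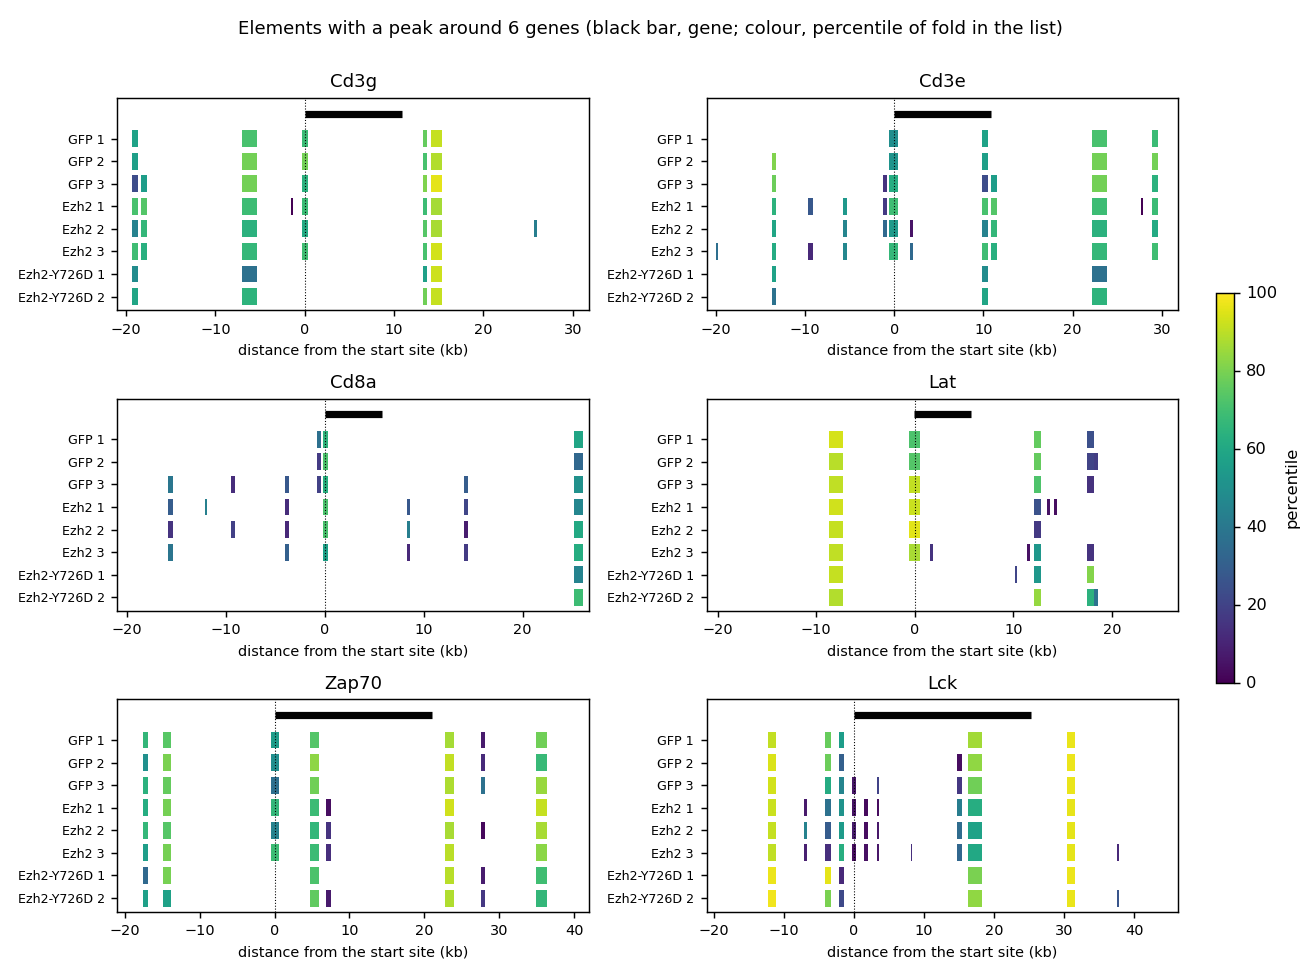
Elements with a peak in each of the 8 lists (rows) by distance from the start site in kb (x axis, first RefSeq start site, transcription to the right) around Cd3g, Cd3e, Cd8a, Lat, Zap70 and Lck; the black bar is the gene and colour gives the percentile of fold in the list. At 0 kb the first 5 genes have a mark in the 6 GFP and Ezh2 rows and none in the 2 Ezh2-Y726D rows, while most of the strong flanking elements run through all 8 rows.

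The CD3 cluster held both patterns side by side. The far end of Cd3d (chr9:44985789-44987409), 6.17 kb upstream of the Cd3g start site, stood at 71.0, 78.7 and 78.7 in GFP, 68.6, 64.0 and 66.6 in Ezh2, with 37.0 and 64.8 in Ezh2-Y726D. The element at the far end of Cd3e (chr9:44999146-44999785) was present in all 8 lists too, at 23.4 to 57.5 in GFP, 44.2 to 71.1 in Ezh2, with 48.3 and 58.7 in Ezh2-Y726D. A second element beside it (chr9:44998057-44998779) was in GFP replicate 3, at 55.4, in all Ezh2 lists, at 63.3 to 73.3, and in neither Ezh2-Y726D list. Just upstream of the Cd3e start (chr9:45010404-45010815), GFP replicate 3 and Ezh2 replicates 1 and 2 had a peak, at 14.6, 17.0 and 33.8. At an end of the neighbour Ube4a, a ubiquitin ligase gene, the element (chr9:44965103-44966307) ranked between 86.7 and 95.7 in all 8 lists. Upstream of Cd3e, an element 13.4 kb from its start (chr9:45022825-45023268) was missing from GFP replicate 1 alone, at 80.9 and 77.7 in the other GFP lists, 59.0 to 64.1 in Ezh2, with 57.5 and 37.8 in Ezh2-Y726D.

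Around Cd8a, the element 25.7 kb past its start (chr6:71398641-71399556), inside Rmnd5a, was the one with a peak in all 8 lists, at 33.5 to 58.7 in GFP, 46.0 to 62.1 in Ezh2, with 44.9 and 68.5 in Ezh2-Y726D. Around Cd4, 7 of 14 elements had a peak in all 8 lists. Among them were elements inside P3h3 (chr6:124846990-124848028), at 95.8 to 99.2, at Gpr162 (chr6:124862973-124864413), at 18.8 to 44.6, and at Lag3 (chr6:124903434-124905271), a checkpoint receptor gene of T cells, at 45.6 to 71.4. Inside Cd4 an element (chr6:124885106-124886189) had no peak in GFP replicates 1 and 2, 14.7 in GFP replicate 3, and 41.6, 49.5 and 52.7 in Ezh2, with none in Ezh2-Y726D. Elsewhere in the gene, another element (chr6:124876018-124876910) ranked at 38.9, 46.7 and 58.7 in GFP, 31.4, 34.2 and 64.4 in Ezh2, with 87.3 and 86.7 in Ezh2-Y726D. Cd4 thus held elements that ranked higher in Ezh2-Y726D as well as elements missing from it.

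At Lat, an element 17.8 kb past its start (chr7:126351402-126352082), over the noncoding gene Gm30928, ranked at 81.4 and 64.0 in Ezh2-Y726D. It stood at 24.3, 20.1 and 14.1 in GFP and was in Ezh2 replicate 3 alone, at 14.5. The end of Spns1 away from Lat (chr7:126376908-126378300) ranked at 88.3 to 93.5 in all 8 lists. Around Zap70, an element inside the gene (chr1:36766507-36767678) ranked at 66.0 to 83.0 in all 8 lists, and an element past the gene (chr1:36784505-36785794) at 86.4 to 92.9. Around Lck, an end of Hdac1 (chr4:129542061-129543270), a histone deacetylase gene, ranked at 95.9 to 97.1 in all 8 lists, and an upstream element (chr4:129584796-129585859) at 90.6 to 97.9.

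Ezh2 was then set against GFP. The members were not chosen by a difference between these groups, but presence in both groups entered the choice, so these lists were not free of it. Elements with a peak in all Ezh2 lists and no GFP list numbered 6 of 97, against 2.72% of all 189914 elements. They were at Cd3e (chr9:45014933-45015333), at 53.5, 45.5 and 46.3, at Cd247 (chr1:165828637-165829340), at 23.7, 56.5 and 55.5, and at Cd8a (chr6:71381703-71382086), at 27.3, 42.4 and 11.6. The others were 2 at Lck (chr4:129571572-129572206 and chr4:129580336-129580798), at 2.49 to 4.07 and 6.73 to 44.0, and 1 at Zap70 (chr1:36768650-36769280), at 3.67 to 14.7. The Zap70 element was also in Ezh2-Y726D replicate 2, at 6.70, and the 5 others were in neither Ezh2-Y726D list. Without GFP replicate 3, whose background pileup was the highest of the 8 at 3.74 reads, the count was 18. The 2.72% holds for the full set of lists. No genome share was worked out with a list left out, and nothing is read from the 18. GFP replicates 1 and 2 stood at 3.25 and 2.69 and the Ezh2 lists at 3.09 to 3.59, and the part of depth in these counts was not tested. The reverse, a peak in all GFP lists and no Ezh2 list, was found at 2 elements, against 1.68% of all elements. One lay 0.628 kb upstream of the Cd8a start (chr6:71372585-71373013), at 36.4, 17.4 and 19.3, and one inside Cd247 (chr1:165839231-165839551), at 1.46, 12.9 and 0.88. Without Ezh2 replicate 2 it was found at 4, again with no genome share beside it.

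For the 34 elements with a peak in all 8 lists, the rank of fold within a list was turned into a normal score and compared with limma over all 69493 such regions of the genome. In Ezh2 against GFP, 4 of the 34 fell and 0 rose, against 4.44% of all regions called in either direction. Without multiple-test adjustment, 13903 of the 69493 regions had p under 0.05. The median score difference was -0.13 over the 34 and 0.01 over all regions. The direction turned with the column ranked: by −log10 p instead of fold, 2 of the 34 rose and 0 fell, and the median was 0.09 over the 34 and 0.01 over all regions. The 2 that rose lay inside Cd247 (chr1:165802979-165803683), by 1.24 (limma adjusted p = 0.0379), and upstream of the distal Lck start (chr4:129575023-129575743), by 0.87 (limma adjusted p = 0.0493).

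The element with the largest fall lay inside Cd4 (chr6:124883247-124884270), at 90.6, 83.6 and 88.7 in GFP, 23.6, 61.5 and 44.2 in Ezh2, with 85.0 and 86.9 in Ezh2-Y726D. Every Ezh2 list lay below every other list, and the score fell by 1.63 (SE 0.25, limma adjusted p = 0.0109). It remained called with each of the 8 lists left out in turn, with limma adjusted p from 0.00957 to 0.0421.

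A Lat flank element 12.4 kb past the start (chr7:126356730-126357506) ranked at 76.1, 76.4 and 72.3 in GFP, 25.3, 16.8 and 53.0 in Ezh2, with 53.1 and 84.3 in Ezh2-Y726D. All Ezh2 lists lay below all GFP lists, and the score fell by 1.36 (SE 0.31, limma adjusted p = 0.0388). The call was lost without any 1 of GFP replicates 1, 2 and 3 and Ezh2 replicates 1 and 2, with limma adjusted p from 0.0814 to 0.108.

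A pair of elements lay at Lck. One in the gene body (chr4:129555381-129557310) ranked at 86.1, 83.6 and 78.2 in GFP, 62.4, 57.8 and 59.8 in Ezh2, with 79.8 and 83.3 in Ezh2-Y726D. Its score fell by 0.87 (SE 0.18, limma adjusted p = 0.0270), and the call was lost without GFP replicate 1 or 2 or any 1 Ezh2 replicate, at 0.0538 to 0.0823. The other lay at the end of Fam167b (chr4:129576925-129577710), 3.68 kb upstream of the distal start, at 76.8, 77.7 and 61.1 in GFP, 36.8, 28.8 and 13.5 in Ezh2, with 95.8 and 79.9 in Ezh2-Y726D. Its score fell by 1.42 (SE 0.33, limma adjusted p = 0.0396), and the call was lost without any 1 of the 6 GFP and Ezh2 replicates, at 0.0538 to 0.118. With regions ranked by −log10 p instead of fold, none of these 4 elements passed, with limma adjusted p from 0.0540 to 0.176. The weak Lck start-site peaks were thus in all Ezh2 lists, while these stronger elements ranked lower by fold in Ezh2 than in GFP.

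**Figure D4:**
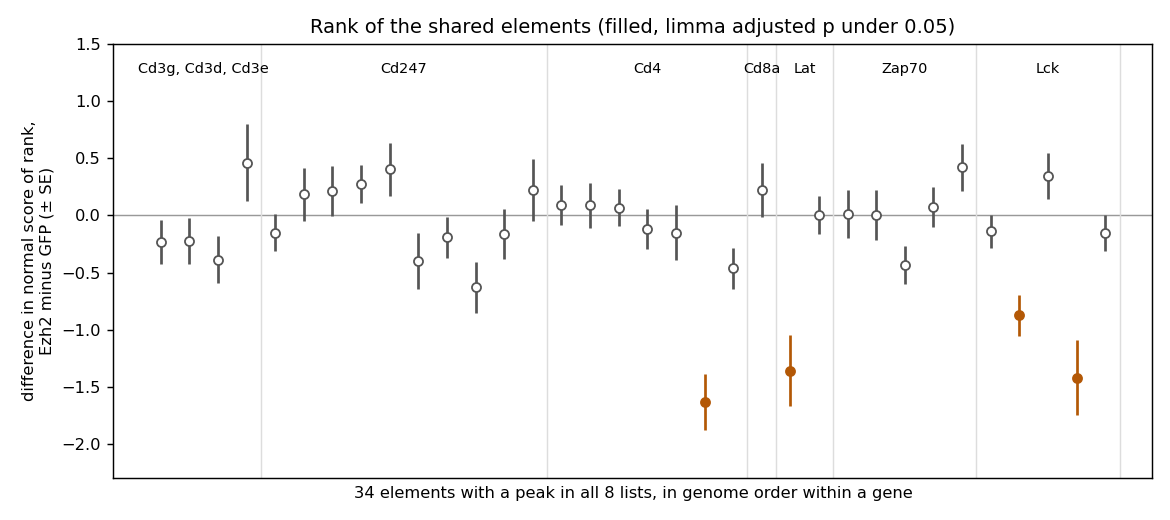
Difference in the normal score of within-list rank, Ezh2 minus GFP (y axis, ± SE, n = 3 and 3), for the 34 member elements with a peak in all 8 lists, in genome order within each gene (x axis). The 4 filled points, at Cd4, Lat and Lck, lie between -1.63 and -0.87, and the open points had a limma adjusted p above 0.05.

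The contrasts with Ezh2-Y726D are given as a description only, beside 8.21% of the 69493 regions called against GFP and 14% called in Ezh2 against Ezh2-Y726D. Against GFP the 34 shared elements had a median score difference of -0.05, against -0.01 over all regions, and 2 of them had a limma adjusted p under 0.05, both higher (by −log10 p, 2 were higher and 2 lower). These were the Cd4 element at chr6:124876018-124876910, with a difference of 1.37, and the Cd247 element at chr1:165802979-165803683, with a difference of 1.34. The Cd4 value lost its call without Ezh2-Y726D replicate 1 or 2 (limma adjusted p = 0.101 and 0.0772), and the Cd247 value without Ezh2-Y726D replicate 2 (limma adjusted p = 0.0913). The Cd247 element ranked at 28.5, 39.2 and 45.4 in GFP, 46.5, 54.4 and 56.2 in Ezh2, with 68.1 and 89.0 in Ezh2-Y726D. In Ezh2 against Ezh2-Y726D, 2 of the 34 were higher and 8 lower, with a median difference of -0.08, whereas by −log10 p 3 were higher and 1 lower, with a median of 0.07. Both contrasts share libraries with the one above and are not independent of it.

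Among 27 other genes of TCR signalling, 24, 23 and 25 had a gene-end peak in GFP lists, 26, 26 and 25 in Ezh2 lists, and 17 and 15 in Ezh2-Y726D lists. The pattern of the members, present in all 6 and absent from both, was found at 6 of the 22 with a peak in all 6, beside the 1.8% of genes given above. The list was chosen with these results known, and nothing is read from the count. They were Cd8b1 (the CD8 beta chain), Cd28 (a costimulatory receptor), Lcp2 (the adaptor SLP-76, a partner of Lat), Ptpn22 and Ubash3a (phosphatases that dampen the signal) and Ptprc (CD45, the leukocyte phosphatase that activates Lck). Genes with a peak in all 8 lists included Cd2, Cd5, Icos, Fyn, Txk, Grap2, Plcg1, Prkcq, Rasgrp1, Nfatc1, Nfatc2, Themis and Skap1. Several of these, such as Fyn and Plcg1, are also widely used outside T cells.

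Of 12 transcription factor genes known in T cells, 10 had a gene-end peak in each of the 6 GFP and Ezh2 lists and 9 and 10 in the Ezh2-Y726D lists. None had the pattern of the members, and 9 had a peak in all 8 lists: Tcf7, Lef1, Bcl11b, Runx3, Ikzf1, Tbx21, Satb1, Eomes and Zbtb7b. Of 6 constant-region genes of the receptor's own chains, Trdc had one in all 8 lists, and Trac, the alpha chain, in 5 of the 6 GFP and Ezh2 lists and in neither Ezh2-Y726D list. The Trac peaks ranked at percentiles 0.2 to 0.8, at the bottom of each list that had one, so little is read from their absence elsewhere. The other 4 had none in any list.

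Markers of NK cells and of microglia and macrophages moved with the members' peaks, and their part in the result was not tested. Of 15 NK cell genes, 9, 8 and 11 had a gene-end peak in GFP lists and 13, 14 and 14 in Ezh2 lists. In Ezh2-Y726D lists 2 and 4 had one. Of the 7 with a peak in all 6 GFP and Ezh2 lists, 4 showed the members' pattern (Gzmb, Prf1, Nkg7 and Il2rb), beside 1.8% of genes. Klre1 and Eomes had a peak in all 8 lists, and Klrd1 and Cd244a had one in Ezh2-Y726D replicate 2. This list was chosen with earlier results of these data known, and nothing is read from the count. The mean percentile over that list, with 0 for a gene without a peak, was 27.5 to 37.6 in GFP, 49.5 to 53.7 in Ezh2 and 10.0 to 15.7 in Ezh2-Y726D. Of 20 microglia and macrophage genes, 14, 12 and 16 had one in GFP, 16, 14 and 15 in Ezh2, and 5 in each Ezh2-Y726D list, at a mean percentile of 28.1 to 36.6, 36.3 to 45.2 and 18.0 to 18.2. Of the defining genes, Cx3cr1, Csf1r and Tyrobp had no gene-end peak in an Ezh2-Y726D list, Spi1 had one in all 8 lists, and P2ry12 had one in all GFP and Ezh2-Y726D lists and in no Ezh2 list. The NK receptor genes Ncr1 and Klrb1c had none in a GFP or Ezh2-Y726D list. Of 15 B cell genes, 7 had one in each GFP and Ezh2 list and 6 in each Ezh2-Y726D list. Over the 9 members the same mean was 54.6 to 57.5 in GFP, 58.1 to 61.7 in Ezh2, with 20.9 and 23.4 in Ezh2-Y726D.

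Retinal lists were more even in the number of genes with a peak. RGC genes had a mean percentile of 57.5 to 58.8 in GFP, 60.6 to 63.0 in Ezh2 and 54.2 to 58.5 in Ezh2-Y726D, and 13 of 15 Müller glia genes had a peak in every list. Of 15 rod genes, 14 had one in each GFP list, 12 or 13 in Ezh2, with 12 and 14 in Ezh2-Y726D. Of 15 endothelial genes, 7 to 9 had one in every list. The mean percentile of Müller glia genes was 50.3 to 53.9 in GFP, 53.1 to 55.8 in Ezh2 and 46.3 to 48.2 in Ezh2-Y726D. For endothelial genes it was 25.8 to 30.9, 30.9 to 33.6 and 24.8 to 25.2, so both lists were lowest in Ezh2-Y726D. For rod genes it was 47.1 to 49.9, 45.1 to 51.6 and 39.2 to 46.2. Eomes stands in the lists of T cell factors, NK cells and RGCs, and Thy1 among the RGC genes.

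**Figure D5:**
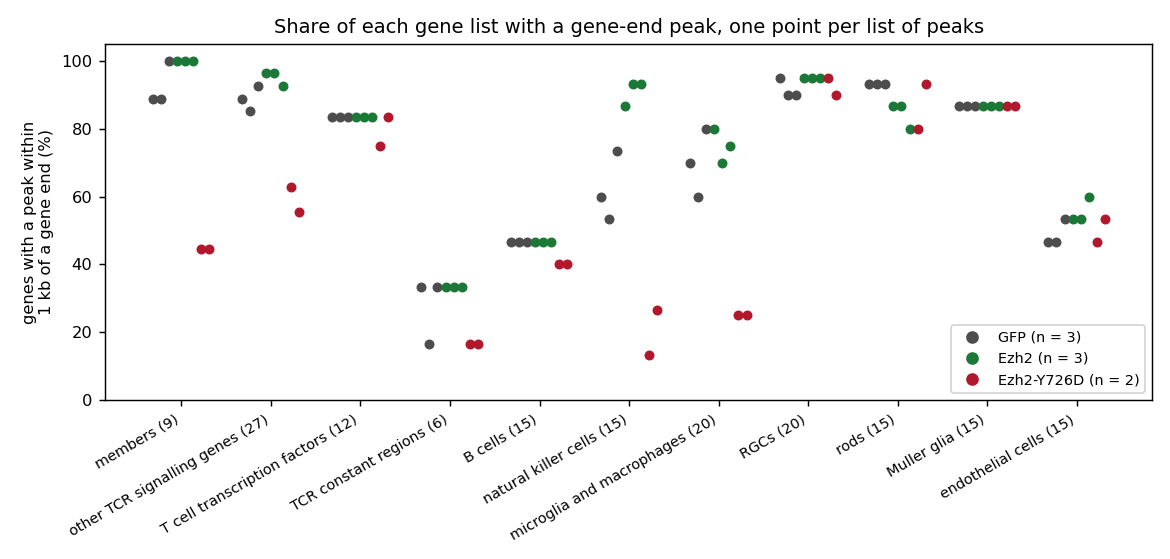
Share of genes with a peak within 1 kb of a gene end (y axis, %) in each of 11 gene lists (x axis, number of genes in brackets), with 1 point per list of peaks, GFP in grey (n = 3), Ezh2 in green (n = 3) and Ezh2-Y726D in red (n = 2). The Ezh2-Y726D points lie below all others for the members, the other TCR signalling genes, B cells, NK cells and microglia and macrophages, and within or near them for RGCs, rods, Müller glia and endothelial cells.

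Thy1, whose product was the handle of the sort, had 2 elements of the members' pattern in its flank. One (chr9:44030741-44032049) ranked at 50.6, 33.0 and 54.5 in GFP and 55.5, 44.4 and 52.5 in Ezh2, and the other (chr9:44033789-44034840) at 23.5, 11.8 and 20.8 in GFP and 17.3, 33.5 and 27.1 in Ezh2. Neither was in an Ezh2-Y726D list. The strongest element within 20 kb of Thy1 (chr9:44066679-44067800) ranked at 85.0 to 87.7 in GFP, 89.8 to 93.9 in Ezh2, with 89.7 and 92.2 in Ezh2-Y726D.

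The genes outside the members whose gene-end percentile was most like the members' mean, by Pearson correlation over the 8 lists, were Lilrb4a (0.997), Syce1l, Nckap1l, Prss30, Hsh2d, Cst7, Ctla2b, Hpgds, Nr3c1 and Impa1 (0.993). The correlation is a description over 8 points that fall into 2 clusters by group. Lilrb4a, an inhibitory receptor gene of blood cells, ranked at 77.1 to 85.0 in GFP and 83.9 to 89.0 in Ezh2 and had no peak in Ezh2-Y726D.

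At the 20 kb limit of the rule, the outermost element inside (chr9:45029419-45029618), 19756 bp from Cd3e, was in Ezh2 replicate 3 alone, at 36.1. The nearest element outside (chr1:165891600-165891988), 20447 bp from Cd247, was missing from GFP replicate 2 and stood at 26.5 and 39.4 in the other GFP lists, 53.5 to 61.3 in Ezh2, with 43.0 and 61.8 in Ezh2-Y726D.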

How the data were processed

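Libraries were grouped by sample title (GFP n = 3, Ezh2 n = 3, Ezh2-Y726D n = 2). The authors called peaks in each library separately; the submitters' processing notes name cutadapt, Bowtie2, SAMtools, Picard, MACS2 and deepTools, without versions, and the build GRCm38. The deposited fold (a ratio of summit pileup to local background), −log10 p-value, −log10 q-value (lowest 1.31 to 1.38) and score were read as deposited. Fold was ranked within its own list, and the score was not used. The lists hold no reads, so no counting interval was possible.

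Peaks sharing 1 bp were merged, and an element with several peaks of a list took the highest. Genes and start-site windows came from RefSeq (GRCm38.p6). Normal scores of within-list ranks over 69493 regions in all 8 lists were fitted with limma 3.58.1 (R 4.3.3), all 8 libraries in 1 fit, with Benjamini-Hochberg adjustment over all regions and a threshold of 0.05. Scripts (Python 3.11.15) were tested on simulated data. The members and gene lists were chosen with earlier results of these data known. Elements named are start-site and gene-end elements, those in all lists of 1 group and none of another, the 2 highest per member by mean GFP percentile, and those passing limma. The Cd4, Cd247, Cd3d, Cd3e and Lat elements named besides, the Thy1 elements present in all 8 lists and the start-site counts were chosen after their values were seen. Alternatives were a −log10 q of at least 5, lists of equal length, a peak covering at least 0.5 of its element, windows of 5 kb and 0 kb, rank by −log10 p, a replicate block, only the groups compared, and each library left out. Not every gene of the lists is reported here by name.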

Additional observations from a re-analysis of the deposited data

How the results depend on the processing

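For presence, the counts and differences kept to within 1.5 times their value under the other settings, except as follows. The difference in mean peaks between Ezh2 and GFP was 11 with windows of 5 kb and 10.7 in gene bodies alone, against 17.3. With −log10 q of at least 5, elements in all GFP and no Ezh2-Y726D list numbered 7 instead of 11, and those in all GFP and no Ezh2 list 0 instead of 2. In gene bodies alone, elements in all Ezh2 and no GFP list numbered 3 instead of 6, and those in all GFP and no Ezh2 list 1 instead of 2. With 1 library left out, the count in all GFP and Ezh2 and no Ezh2-Y726D list was 7 to 9, in all GFP and no Ezh2-Y726D list 11 to 13, in all Ezh2 and no GFP list 6 to 18 (18 without GFP replicate 3), and in all GFP and no Ezh2 list 2 to 4. The difference in mean peaks from GFP was -21 to -11 for Ezh2-Y726D and 12.8 to 22.8 for Ezh2. Members with the pattern at a gene end stayed at 4, and at a start site, a count added after seeing the data, were 5 to 6.

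Calls were less stable. With 1 library left out, Ezh2 against GFP gave 1166 to 2382 calls over all regions (3083 with all) and 1 to 4 among member elements (4), Ezh2-Y726D against GFP 999 to 5477 (5702) and 1 to 2 (2), and Ezh2 against Ezh2-Y726D 3501 to 9394 (9699) and 4 to 9 (10). A group left with 1 Ezh2-Y726D library was assumed to vary like the others. Ranked by −log10 p, calls among member elements were 2 in Ezh2 against GFP (2 higher, 0 lower, against 0 and 4 by fold), 4 in Ezh2-Y726D against GFP (2 and 2, against 2 and 0) and 4 in Ezh2 against Ezh2-Y726D (3 and 1, against 2 and 8), and the Cd247 element chr1:165802979-165803683 reversed in Ezh2 against Ezh2-Y726D, from -0.94 to 0.0857; the cause was not tested. With lists of equal length, 4 of 32 member elements were called in Ezh2-Y726D against GFP, 2 higher and 2 lower.

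Whether replicate numbers mark a shared day or litter is not known. Deviations of libraries with the same title number correlated at -0.02 to 0.05, and those of other pairs at -0.05 to 0.05. By the number in the peak names, the ranges were 0.002 to 0.05 and -0.05 to 0.03. A replicate block by title number gave 2200, 4807 and 8069 calls over all regions in the same order and 3, 2 and 5 among member elements. Peak names number Ezh2-Y726D replicates 1 and 2 as 2 and 3, and a replicate block by that number gave 1957, 3244 and 6715 calls, and 3, 3 and 6 among member elements. The Lat element was lost under both blocks in Ezh2 against GFP (limma adjusted p = 0.0682 and 0.0528), and the 3 others were kept.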
